A study of Mus musculus with 12 samples.

Results

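The resident macrophages of the liver, the Kupffer cells, were followed in mouse liver through 10 marker genes chosen by name, Marco, Cd163, Clec4f, Vsig4, Timd4, Lyz2, Cd5l, Adgre1, Cd68 and Csf1r. Every probe set annotated to 1 of these genes was taken, which gave 13 probe sets among the 45037 tested. On these Affymetrix mouse genome arrays a probe set combines several short probes into 1 reading of a transcript. Marco had 2 probe sets, Csf1r had 3 and each other gene had 1. No probe set named a marker together with another gene.

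The livers came from male C57BL/6 mice, adult when the experiment began and fed a standard diet throughout. SHS4m mice had breathed secondhand smoke (SHS) for 4 months (4 arrays, replicates 66 to 69). SHS4m+1m recovery mice had the same 4 months of smoke followed by 1 month of clean air (4 arrays, replicates 70 to 73). Control mice were sham-exposed to filtered air (4 arrays, replicates 1 to 4). The study kept age-matched sham mice both with and without recovery time, and the labels do not say which of these the 4 control arrays came from, so 1 month of age and the smoke exposure cannot be fully told apart. Each level below is the log2 of the array signal, with signals under 32 raised to 32, that is, to 5 on the log2 scale. Such a level cannot be compared between probe sets, only between arrays for the same probe set.

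Kupffer cells lie in the liver sinusoids, where they take up microbes, dying red cells and modified lipoproteins from the portal blood. They are seeded before birth and renew themselves locally, and when they are lost, monocytes from the blood can fill the niche and take on the same identity. Clec4f and Vsig4 mark the Kupffer cell itself, Timd4 marks mainly the long-lived cells of embryonic origin, and Marco and Cd163 are scavenger receptors whose transcripts also respond to the state of the cell. Adgre1, Cd68, Csf1r and Lyz2 are shared by macrophages of many tissues. In RNA of whole liver, fewer cells of a type and less RNA per cell cannot be told apart.

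The 250 bases upstream of the gene start are shown for 3 markers that moved at the end of the exposure, Marco upward and Clec4f and Lyz2 downward. They are RefSeq sequences on GRCm38.p6, read 5′ to 3′ on the strand of the gene, which is the minus strand for all 3, at chr1:120505025-120505274, chr6:83656117-83656366 and chr10:117282273-117282522. Capitals mark the letters GAGGAA, a form of the site bound by PU.1, a transcription factor of the macrophage lineage.
Marco: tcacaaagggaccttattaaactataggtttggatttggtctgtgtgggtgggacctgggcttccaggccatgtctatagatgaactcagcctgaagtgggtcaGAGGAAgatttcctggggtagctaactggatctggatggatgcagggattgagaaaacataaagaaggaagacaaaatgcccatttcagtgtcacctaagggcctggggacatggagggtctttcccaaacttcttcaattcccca
Clec4f: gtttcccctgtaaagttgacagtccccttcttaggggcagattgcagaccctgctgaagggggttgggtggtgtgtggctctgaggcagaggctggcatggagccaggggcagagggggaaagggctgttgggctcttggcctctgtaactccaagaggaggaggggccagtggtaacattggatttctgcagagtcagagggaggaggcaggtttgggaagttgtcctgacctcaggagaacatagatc
Lyz2: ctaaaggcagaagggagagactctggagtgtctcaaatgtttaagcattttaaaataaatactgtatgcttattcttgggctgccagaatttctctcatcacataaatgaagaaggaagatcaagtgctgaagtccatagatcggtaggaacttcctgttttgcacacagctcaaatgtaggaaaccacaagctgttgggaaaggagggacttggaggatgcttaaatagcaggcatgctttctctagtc
Only the Marco sequence of these 3 held GAGGAA, starting at position -146 from the gene start. The shorter GGAA within it was not marked and also occurs in the Clec4f and Lyz2 sequences. Promoter windows of 300 bases, from 250 before to 50 after the gene start, were found for 8 of the 10 markers, all but Adgre1 and Csf1r. GAGGAA on either strand was present in 4 of the 8 (Marco, Vsig4, Cd5l and Cd68), against 28.3% of 32851 promoters of the same length. The AP-1 letters TGANTCA were present in 1 of the 8, Cd68, against 7.81% of all promoters. The E-box letters CACGTG were present in 0 of the 8, against 7.15%. No match of 1 motif overlapped a match of another. A match is a description of the letters and not of binding.

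At the end of the 4-month exposure the markers moved in opposite directions. The scavenger receptor Marco rose 3.73-fold and Cd163, the receptor for haptoglobin-bound hemoglobin, rose 1.49-fold. The Kupffer cell lectin Clec4f fell by 0.51 and the macrophage lysozyme Lyz2 fell by 0.76 on the log2 scale, that is, they were 1.43-fold and 1.7-fold lower. These were 4 of the 13 probe sets called in SHS4m against control (limma, adjusted p under 0.05 over all probe sets), 2 higher and 2 lower, where 5.4% of all probe sets were called, 2.52% higher and 2.87% lower. Of the 9 that were not called, 7 lay below 0 and 2 above. The median difference over the 13 probe sets was -0.31, against 0 over all probe sets tested.

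**Figure D1:**
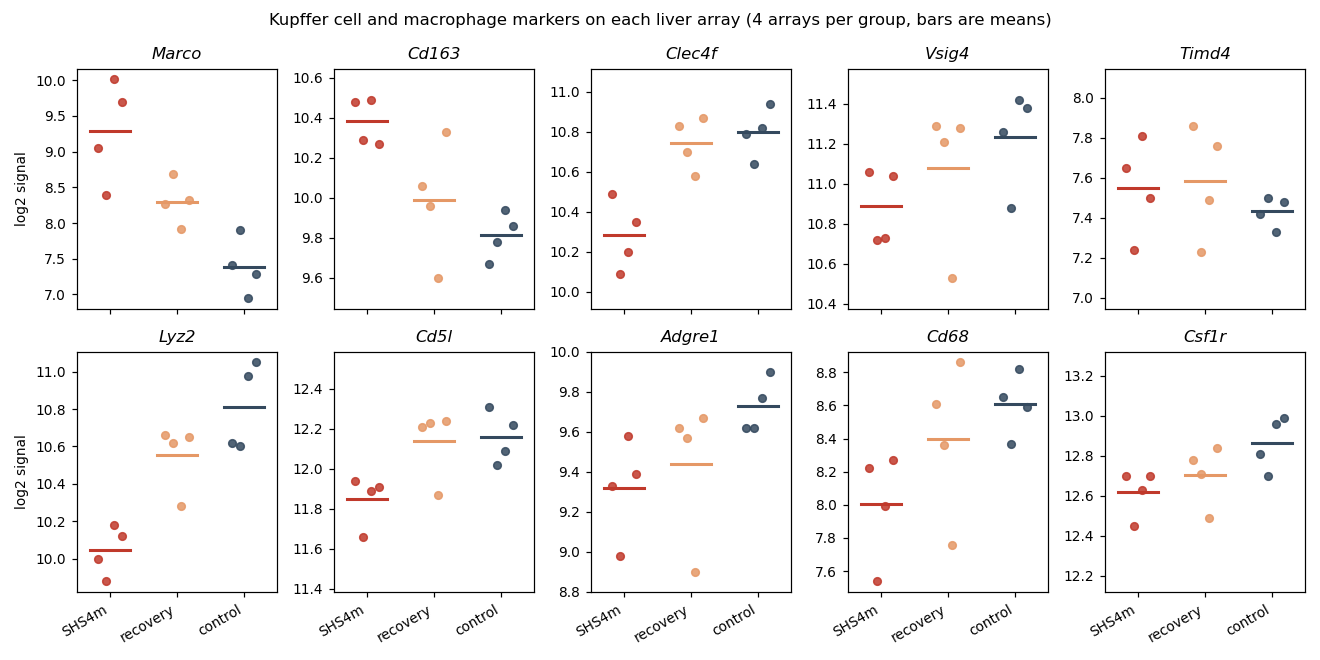
Log2 signal of the brightest probe set of each of the 10 markers on every array, with SHS4m left, SHS4m+1m recovery in the middle and control right. Points are arrays, bars are means of 4, and each panel has its own vertical axis. Marco and Cd163 lay above all controls on the 4 SHS4m arrays, and Clec4f and Lyz2 lay below all controls.

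Marco encodes a class A scavenger receptor with a collagenous stalk, by which macrophages bind bacteria and inhaled or blood-borne particles. Its log2 signal was 9.05, 8.39, 10.01 and 9.69 in SHS4m livers, 8.26, 8.69, 7.92 and 8.32 in SHS4m+1m recovery livers, and 7.41, 7.90, 6.95 and 7.28 in control livers. All 4 SHS4m arrays lay above all 4 controls, and so did all 4 recovery arrays, although the lowest of these, replicate 72, barely cleared the highest control. The mean was 9.28 ± 0.72 in SHS4m livers, 8.30 ± 0.317 in SHS4m+1m recovery livers and 7.39 ± 0.396 in control livers (SD, n = 4 each). The difference from control was 1.90 (SE 0.347) at the end of exposure (limma, adjusted p = 0.0137) and 0.91 after recovery (adjusted p = 0.271). Recovery minus SHS4m was -0.99 (adjusted p = 0.211), and these groups overlapped. Marco was the 1 marker past the unadjusted p under 0.05 and 2-fold change that the study applied, a rule which 2.47% of all probe sets met. The study listed Marco from these same arrays, so its rise here is not independent evidence. The study presented its list as genes that differed from control both before and after recovery. It drew that list from a comparison of both exposed groups with controls. In its separate list for recovery against control, Marco was not among the higher transcripts. After recovery Marco was not called here either, and its difference of 0.91 was short of a 2-fold change.

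The other Marco probe set was dim and lay at the floor on 2 control arrays and 1 recovery array. Its log2 signal was 6.31, 5.86, 7.22 and 6.85 in SHS4m livers, 6.55, 5.89, 5 and 6.35 in recovery livers, and 5, 6.09, 5 and 6.30 in control livers. Its difference of 0.96 between SHS4m and control had the direction of the brighter set and was not called (adjusted p = 0.319).

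Cd163 clears hemoglobin that has left red cells, passing its heme to the heme-degrading enzymes of the macrophage. Its log2 signal was 10.48, 10.29, 10.49 and 10.27 in SHS4m livers, 10.06, 9.96, 9.60 and 10.33 in SHS4m+1m recovery livers, and 9.67, 9.78, 9.94 and 9.86 in control livers. The SHS4m arrays stood clear of the controls, whereas the recovery arrays straddled them, replicate 72 below all controls and replicate 73 within the SHS4m range. The difference was 0.57 (SE 0.138) at the end of exposure (limma, adjusted p = 0.0421), and 0.18 after recovery (adjusted p = 0.675). The first call was marginal. It was lost when any single SHS4m or control array was left out, with adjusted p up to 0.106 over the 17 alternatives tried and a difference between 0.53 and 0.65.

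Clec4f, a C-type lectin that in mouse is largely confined to Kupffer cells, ran the other way. Its log2 signal was 10.49, 10.09, 10.20 and 10.35 in SHS4m livers, 10.83, 10.70, 10.58 and 10.87 in SHS4m+1m recovery livers, and 10.79, 10.64, 10.82 and 10.94 in control livers. Every SHS4m array was below every control and every recovery array. The mean was 10.28 ± 0.176 in SHS4m livers, 10.74 ± 0.13 in SHS4m+1m recovery livers and 10.80 ± 0.121 in control livers (SD, n = 4 each). The difference from control was -0.51 (SE 0.0992) at the end of exposure (limma, adjusted p = 0.0173) and -0.05 after recovery (adjusted p = 0.926). Clec4f was also the 1 marker called between the exposed groups, 0.46 higher in recovery than in SHS4m livers (adjusted p = 0.0442). The call against control was lost under 2 of 17 alternatives, no floor and median centring, with adjusted p up to 0.0655. The call against SHS4m was lost under 14 of 17, with adjusted p up to 0.147.

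Lyz2 encodes lysozyme M, the bacteriolytic enzyme of macrophages and neutrophils. Its log2 signal was 10, 9.88, 10.18 and 10.12 in SHS4m livers, 10.66, 10.62, 10.28 and 10.65 in SHS4m+1m recovery livers, and 10.62, 10.60, 10.98 and 11.05 in control livers. Every SHS4m array lay below every array of the other groups, which overlapped each other. The difference from control was -0.76 (SE 0.13) at the end of exposure (limma, adjusted p = 0.0099) and -0.26 after recovery (adjusted p = 0.452). The neighbouring lysozyme gene Lyz1 fell alongside on its brightest probe set, with a mean of 11.51 ± 0.278 in SHS4m livers, 12.08 ± 0.23 in recovery livers and 12.29 ± 0.189 in control livers (SD, n = 4 each). That difference was -0.78 (adjusted p = 0.0227) between SHS4m and control. The transcripts of Lyz1 and Lyz2 are near-identical and the probes may read both, so the share of each gene in these values is uncertain.

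The remaining markers with 1 probe set each were not called in any comparison, and 4 of the 5 had lower means in SHS4m than in control livers. Cd5l, an abundant secreted protein of Kupffer cells that blunts apoptosis and binds lipids, had log2 signals of 11.94, 11.66, 11.89 and 11.91 in SHS4m livers, 12.21, 12.23, 11.87 and 12.24 in recovery livers, and 12.31, 12.02, 12.09 and 12.22 in control livers. Its SHS4m arrays lay below all controls, with a difference of -0.31 (limma, adjusted p = 0.126). Cd68, a lysosomal glycoprotein, had 8.22, 7.54, 7.99 and 8.27 in SHS4m livers, 8.61, 8.36, 7.76 and 8.86 in recovery livers, and 8.65, 8.37, 8.82 and 8.59 in control livers. These SHS4m arrays also lay below all controls, with a difference of -0.60 whose adjusted p was 0.219.

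Adgre1, an adhesion G protein-coupled receptor that is the classical surface marker of mouse macrophages, had log2 signals of 9.33, 8.98, 9.58 and 9.39 in SHS4m livers, 9.62, 9.57, 8.90 and 9.67 in recovery livers, and 9.62, 9.62, 9.77 and 9.90 in control livers. SHS4m and control did not overlap, and the difference was -0.41 (limma, adjusted p = 0.281). Vsig4, the complement receptor with which Kupffer cells catch opsonised bacteria, had 11.06, 10.72, 10.73 and 11.04 in SHS4m livers, 11.29, 11.21, 10.53 and 11.28 in recovery livers, and 11.26, 10.88, 11.42 and 11.38 in control livers. Here SHS4m and control overlapped through control replicate 2, with a difference of -0.35 (adjusted p = 0.412). Timd4, a receptor for phosphatidylserine on dying cells, had 7.65, 7.24, 7.81 and 7.5 in SHS4m livers, 7.86, 7.23, 7.49 and 7.76 in recovery livers, and 7.42, 7.5, 7.33 and 7.48 in control livers. Its 3 groups overlapped, and the difference was 0.12 (SE 0.151, adjusted p = 0.787).

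Csf1r is the receptor for the macrophage growth factors CSF1 and IL-34, on which Kupffer cell survival depends. Its brightest probe set had log2 signals of 12.70, 12.45, 12.63 and 12.70 in SHS4m livers, 12.78, 12.71, 12.49 and 12.84 in recovery livers, and 12.81, 12.70, 12.96 and 12.99 in control livers. Before rounding, the SHS4m arrays all lay below the lowest control, 2 of them only just, with a difference of -0.25 (limma, adjusted p = 0.195). The next brightest averaged 10.42 ± 0.231 in SHS4m livers, 10.80 ± 0.242 in recovery livers and 10.89 ± 0.09 in control livers (SD, n = 4 each). It came closest to a call among the markers not called, with a difference of -0.48 (adjusted p = 0.0845), and it was called without SHS4m replicate 69 (-0.58, adjusted p = 0.0352). The third and dimmest differed by -0.17 (adjusted p = 0.432), so the 3 Csf1r probe sets shared a direction and not a size.

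Counted over all 13 probe sets, SHS4m and control did not overlap for 9, 2 higher and 7 lower, against 11.8% of all probe sets. The same number had an unadjusted p under 0.05, against 17.4%. Without SHS4m replicate 67, the array lowest for most markers, 11 did not overlap, against 14.7% of all probe sets, 3 were called, Cd163 no longer, and the median was -0.25. With 1 probe set per gene, 7.47% of 18193 genes were called in this comparison. The controls also served the recovery comparison, so the values of both against control are not independent of each other.

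**Figure D2:**
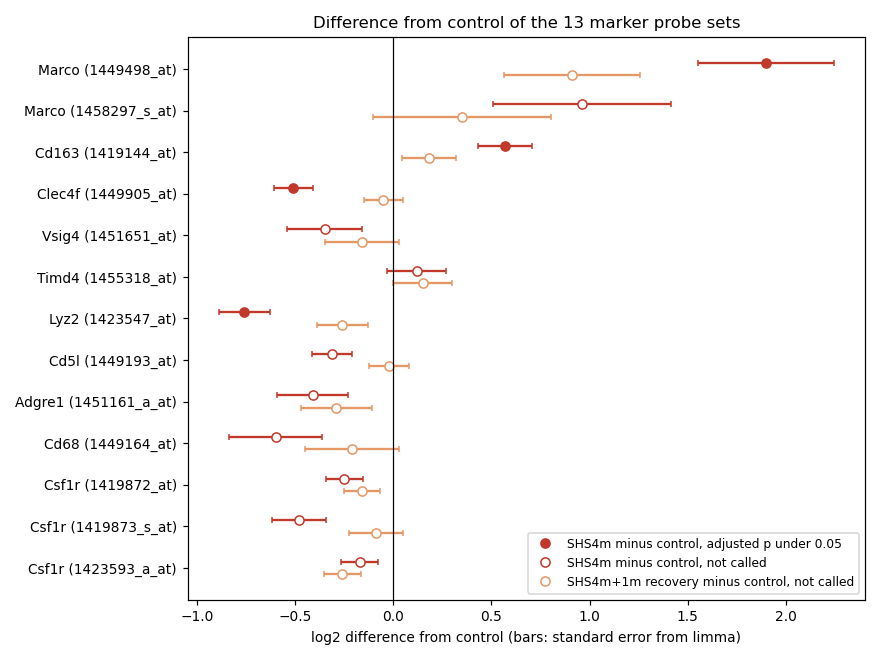
Log2 difference from control of each of the 13 probe sets, SHS4m minus control in red and SHS4m+1m recovery minus control in orange, with bars of 1 standard error from limma. Filled points had an adjusted p under 0.05, namely Marco at 1.90, Cd163 at 0.57, Clec4f at -0.51 and Lyz2 at -0.76, all of them SHS4m minus control.

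After 1 month in clean air, none of the 13 probe sets was called against control, where 2.07% of all probe sets were (limma). At an unadjusted p under 0.05 there were 2, Marco higher and the dimmest Csf1r probe set lower, against 13.3% of all probe sets. Only Marco had groups that did not overlap, against 7.61%, and 0 markers met the unadjusted p with a 2-fold change, against 1.37%. Per gene, 2.52% were called. The median over the 13 was -0.09, with 9 below 0. Without recovery replicate 72 the median was 0.02, with 4 below 0, 2 probe sets had groups that did not overlap, against 10.2% of all probe sets, and none was called.

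Set directly against the end of exposure, recovery livers had higher means for 9 probe sets and lower means for 4, with a median of 0.12. Clec4f was the 1 called, against 2.54% of all probe sets. At an unadjusted p under 0.05 there were 6, against 13.7%. Of these, Clec4f, Lyz2, Cd5l and the second Csf1r probe set had higher means in recovery, and Marco and Cd163 had lower means. Lyz2 differed by 0.51 (adjusted p = 0.0822) and Cd163 by -0.40 (adjusted p = 0.203). The groups did not overlap for 2, Clec4f and Lyz2, against 8.24%, and none met the unadjusted p with a 2-fold change, against 1.7%. These counts leaned on single arrays. Without recovery replicate 72, 7 did not overlap, against 11.5% of all probe sets, and the median was 0.30. Without SHS4m replicate 67, 3 did not overlap, against 10.9%, 8 means were higher and 5 lower, and the median was 0.03. None was called in either case. Per gene, 3.68% were called.

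The 2 markers called higher and the 2 called lower were also set against each other within single arrays, where the scaling of an array cancels. The pairs were chosen for their opposite differences between SHS4m and control. The same SHS4m and control values enter the comparisons with recovery, so every separation below is a description and no further support. The log2 signal of Marco minus that of Clec4f on the same array was -1.44, -1.70, -0.19 and -0.66 in SHS4m livers, -2.57, -2.01, -2.66 and -2.55 in recovery livers, and -3.38, -2.74, -3.88 and -3.65 in control livers. The height of such a difference depends on the probes, and only its change between groups can be read. By this measure the 3 groups did not overlap, with SHS4m highest and recovery in between. Cd163 minus Clec4f averaged 0.10 ± 0.174 in SHS4m livers, -0.76 ± 0.184 in recovery livers and -0.99 ± 0.126 in control livers (SD, n = 4 each). Here SHS4m stood apart, and recovery overlapped control. Cd163 minus Lyz2 averaged 0.34 ± 0.145 in SHS4m livers, -0.57 ± 0.167 in recovery livers and -1 ± 0.152 in control livers, and on this measure recovery again lay between the others without overlap.

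**Figure D3:**
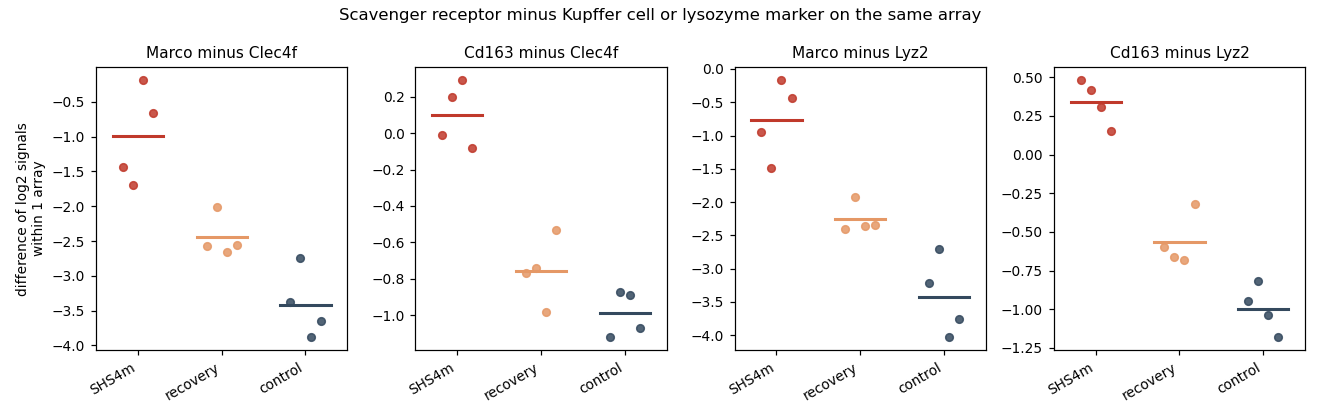
Difference of log2 signals between 2 markers on the same array, Marco or Cd163 minus Clec4f or Lyz2, with SHS4m left, SHS4m+1m recovery in the middle and control right. Points are arrays and bars are means of 4. The pairs were chosen for their opposite differences between SHS4m and control. SHS4m lay above both other groups in every panel, with a mean for Marco minus Clec4f of -1 in SHS4m, -2.45 in recovery and -3.41 in control livers.

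Within groups the markers varied together from liver to liver. Over the 12 arrays, the deviations from group means were positively correlated for all 45 pairs of markers, with a median Pearson r of 0.67 and a range from 0.03 to 0.91. Among Clec4f, Vsig4, Lyz2, Cd5l, Adgre1, Cd68 and Csf1r the median was 0.82 over 21 pairs. Marco was least like the others, with a median of 0.24 over its 9 pairs, and Timd4 had 0.40 over its 7 pairs with the genes just named. These values share arrays and array scaling and are given as a description.

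SHS4m replicate 67 and recovery replicate 72 were each the lowest of their group for 9 of the 10 markers and below the group mean for all 10. Control replicate 2 was lowest for 7. On recovery replicate 72 the ratio of 3′ to 5′ actin probe sets, a sign of RNA integrity, was 8.82, against 3.24 to 4.64 on the other 11 arrays. SHS4m replicate 67 had the lowest median signal of the 12 arrays, 65.15, where the others had 67.15 to 78.15. The part of RNA integrity or of array brightness in the marker levels was not tested.

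**Figure D4:**
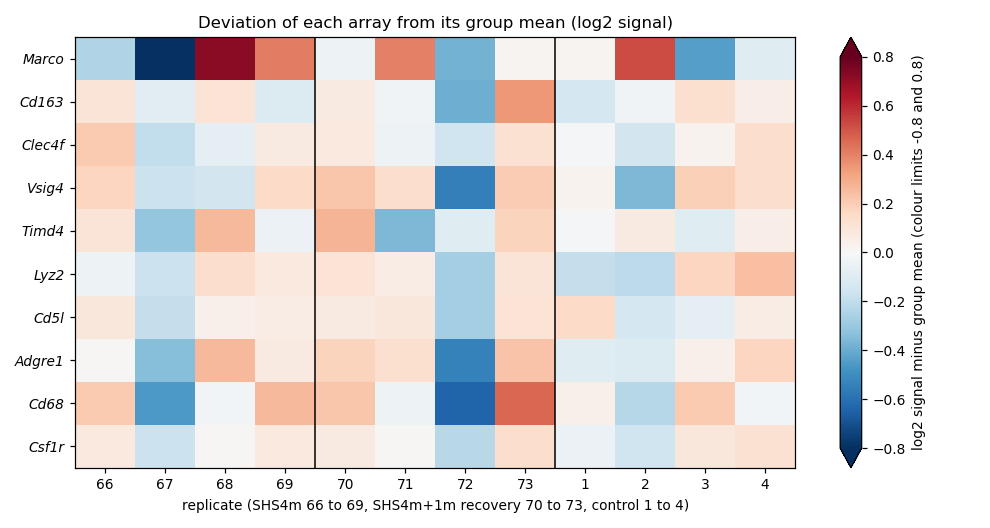
Deviation of each array from its group mean, in log2 signal, for the 10 markers (rows) on SHS4m, SHS4m+1m recovery and control arrays (columns, left to right). Blue is below and red above the group mean, with colours limited at -0.8 and 0.8. The columns of SHS4m replicate 67 and recovery replicate 72 are below the mean for 10 of 10 markers.

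The wider programme of resident macrophages was read from 21 further genes with 1 probe set each. In SHS4m against control 1 rose and 2 fell (limma). For this list and those below, the share called over all genes in that comparison was 7.47%. The other 18 were not called, and the median was -0.34, with 17 below 0. Vcam1, an adhesion molecule of liver macrophages that endothelium also makes, rose by 1.76 (adjusted p = 0.000676), with a mean of 10.13 ± 0.179 in SHS4m livers, 9.25 ± 0.308 in recovery livers and 8.37 ± 0.218 in control livers (SD, n = 4 each). It was 0.87 above control after recovery (adjusted p = 0.0317). The other 2 Vcam1 probe sets differed by 0.60 and -0.05 at the end of exposure and neither was called. Id3, a transcriptional regulator needed for Kupffer cell development, fell by 1.34 (limma, adjusted p = 0.0445), although SHS4m and control overlapped. Maf, a factor of macrophage self-renewal and identity, fell by 0.79 (adjusted p = 0.0133). The 6 Maf probe sets disagreed, with differences between -1.04 and 0.81. After recovery Vcam1 was the 1 gene called against control, and the median was -0.01. That call rested on 1 of 3 Vcam1 probe sets, since the others differed from control by -0.10 and -1.22 and were not called.

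Genes of monocytes and recruited macrophages gave 0 calls of 15 in each of the 3 comparisons (limma), with a median of -0.21 in SHS4m against control. At an unadjusted p under 0.05 there were 4 in SHS4m against control, against 17.4% of all probe sets. There were 0 in recovery against control, against 13.3%, and 4 in recovery against SHS4m, against 13.7%. The chemokine receptor Ccr2, which brings monocytes out of the marrow, averaged 5.25 ± 0.344 in SHS4m livers and 6.42 ± 0.328 in control livers, a difference of -1.17 (adjusted p = 0.0633), with 2 SHS4m arrays at the floor. The endotoxin co-receptor Cd14 averaged 7.98 ± 0.287 in SHS4m livers and 6.70 ± 0.508 in control livers, a difference of 1.28 (adjusted p = 0.2). The integrin Itgam (CD11b) averaged 6.18 ± 0.382 in SHS4m livers and 5.31 ± 0.238 in control livers, with 1 control array at the floor. Its difference was 0.87 (limma, adjusted p = 0.0733). SHS4m and control did not overlap for Ccr2, Cd14 and Itgam, where 11.8% of all probe sets did not. The fatty acid binding protein Fabp5 differed by -1.27 (adjusted p = 0.128). The genes nearest to a call thus lay on both sides of 0. The lipid-associated macrophage markers Trem2 and Gpnmb differed by 0.19 and -0.21 and lay at the floor on some arrays of every group. These 6 were named after their values were seen.

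Of 13 other scavenger receptors, 2 rose in SHS4m against control and none fell. Scara5, a ferritin receptor that is of class A like Marco, rose by 2.90 (limma, adjusted p = 0.00342). Its mean was 10.35 ± 0.411 in SHS4m livers, 6.62 ± 0.724 in recovery livers and 7.45 ± 0.523 in control livers (SD, n = 4 each). Its dimmer probe set differed by -0.92 and was not called. Which cells of the liver made Scara5 was not tested, and Stab2 of the same list is also a sinusoidal endothelial marker. Scarb1, the HDL receptor, which hepatocytes also make, rose by 0.54 (adjusted p = 0.00893) on its brightest probe set and by 0.52 on both others. Recovery minus SHS4m was -3.73 for Scara5 (adjusted p = 0.00221) and -0.41 for Scarb1 (adjusted p = 0.044), and neither was called in recovery against control. Another class A receptor, Msr1, differed by -0.25 between SHS4m and control and was not called (adjusted p = 0.64).

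Among 16 macrophage cytokines and inflammatory enzymes, 1 fell in SHS4m against control and none rose. This was Cxcl10, a chemokine that draws T cells and is induced by interferon, with a mean of 6.34 ± 0.307 in SHS4m livers, 7.86 ± 0.216 in recovery livers and 8.22 ± 0.436 in control livers (SD, n = 4 each). Its difference was -1.88 at the end of exposure (limma, adjusted p = 0.00217), and recovery livers were 1.52 above SHS4m livers (adjusted p = 0.00958). The classical products Tnf, Nos2 and Il6 lay at or near the floor, with means from 5 to 5.67 in every group. Of 11 growth factors and chemoattractants only Gdf2, the BMP9 ligand that stellate cells supply to Kupffer cells, passed the test. It lay 0.66 above control in SHS4m livers (limma, adjusted p = 0.0437), although these groups overlapped. Csf1 and Il34, the ligands of Csf1r, differed by 0.01 and 0.87 and were not called.

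Of 13 phagosome and lysosome genes, 2 rose and 1 fell in SHS4m against control. The cathepsin Ctsl rose by 0.39 (limma, adjusted p = 0.00419) and progranulin, Grn, rose by 0.52 on its brightest probe set (adjusted p = 0.0144), with its other 2 probe sets called in the same direction. Both are also made by hepatocytes. The gene that fell was Lyz1, given above with Lyz2. After recovery the brightest Grn probe set was not called against control (0.19, adjusted p = 0.441), while the other 2 were, at 0.50 and 0.60. In recovery against SHS4m, Ctsl (-0.32, adjusted p = 0.0196) and Gusb (-0.30, adjusted p = 0.0465) were called lower on their brightest probe sets.

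**Figure D5:**
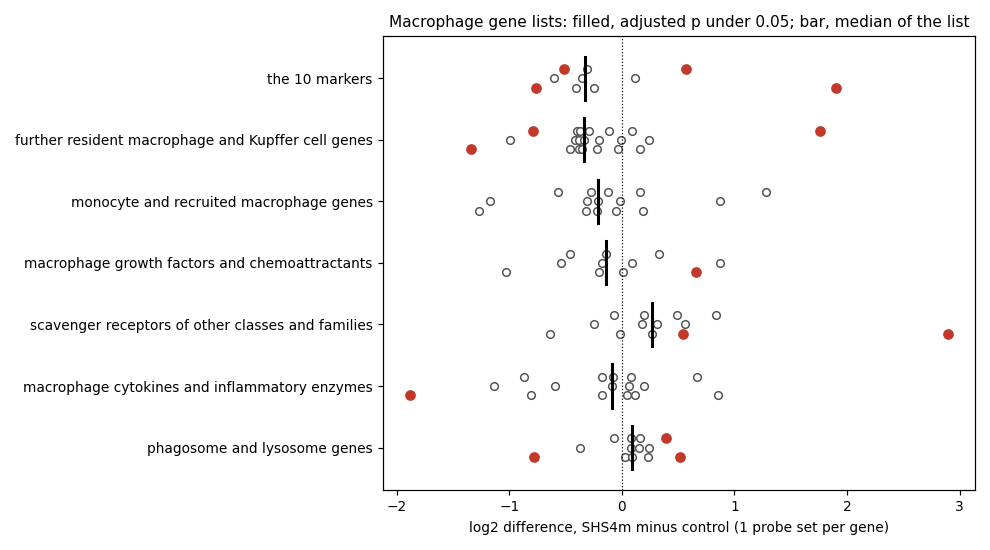
Log2 difference, SHS4m minus control, of the 10 markers and of the genes of 6 macrophage lists, with 1 probe set per gene. Filled red points had an adjusted p under 0.05 and black bars mark the median of each list. The median was -0.34 for further resident macrophage genes and -0.21 for monocyte genes, and 0.27 for other scavenger receptors.

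Of 55 markers of other cell types or of leukocytes in general, 3 (5.45%) were called in SHS4m against control, against 7.47% of all genes. The pan-leukocyte markers among them are carried by macrophages as well. The T and NK, B, neutrophil, dendritic and cholangiocyte lists were dim, with mean levels from 5.70 to 6.64 in control livers. Several of their genes lay at the floor on some arrays, which limits what could be called. Of 6 pan-leukocyte markers 1 fell in SHS4m against control, Ptprc (CD45), by 0.73 (limma, adjusted p = 0.0166), and the list had a median of -0.57. The mean level over the list ranged from 8.88 to 9.31 on SHS4m arrays, from 9.25 to 9.80 on recovery arrays and from 9.44 to 9.81 on control arrays. Of 8 sinusoidal endothelial markers 1 fell, Gpr182, by 0.76 (adjusted p = 0.0499), and the mean over that list ranged from 8.97 to 9.24 on SHS4m arrays and from 9.01 to 9.56 on control arrays. None was called among 8 stellate cell, 7 T and NK cell, 3 B cell, 6 neutrophil, 5 dendritic cell, 4 cholangiocyte and 2 erythroid markers. Each of these lists held 0 to 2 genes at an unadjusted p under 0.05, against 17.4% of all probe sets. Of 6 hepatocyte markers 1 rose, Asgr1, by 0.34 (adjusted p = 0.000738), while 4 of the 6 lay below 0, with a median of -0.16. Ttr, Alb and Apoa1 differed by -0.36, -0.31 and -0.30 and were not called. Tat had the largest difference of the list and went the other way, at 0.89 (limma, adjusted p = 0.0764). It was not called either, although its SHS4m and control groups did not overlap. Of the 6 markers, 4 had an unadjusted p under 0.05, against the same 17.4% of all probe sets. The mean over that list ranged from 15.04 to 15.14 on SHS4m arrays and from 14.93 to 15.14 on control arrays. After recovery 1 of the 55 was called against control, Asgr1 (0.43, limma, adjusted p = 0.0028), against 2.52% of all genes. In recovery against SHS4m 1 was called, Ptprc (0.64, limma, adjusted p = 0.0466), against 3.68%. The part of these cell types in the marker changes was not tested.

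The genes most like 2 markers with opposite movement were found among 9600 other genes by the Pearson r of log2 signal over the 12 arrays, in which the differences between groups enter. Nearest to Marco were Psmd9 (r = 0.949), Scand1 (0.94), Gsto1 (0.929), Sec14l4 (0.914) and Slc19a1 (0.908). Nearest to Clec4f were Mief1 (r = 0.966), Gimap4 (0.955), Fabp7 (0.949), Mme (0.936) and Marcksl1 (0.929).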

How the data were processed

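Liver RNA was hybridised to 12 Affymetrix mouse genome arrays. The authors processed the scans in Affymetrix Expression Console and deposited linear intensity values per probe set, scaled so that the mean of each array, after trimming 2% at each end, was 500. How probes were summarised into probe sets is not stated by the labels or the paper. After 64 array controls were left out, values under 32 were raised to 32 (29.9% to 33.5% of an array), which shrinks changes of dim transcripts, and log2 was taken. limma 3.58.1 in R 4.3.3 fitted 1 model of the 3 groups (9 residual degrees of freedom), with Benjamini-Hochberg adjustment over 45037 probe sets, and was tested on simulated data. The number of arrays limits the precision. Labels do not state separate animals, so p-values measure the spread between arrays.

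All probe sets of the 10 markers are named, and up to 4 called genes per list, read on the brightest probe set that names 1 gene. Members and lists were chosen with earlier results of these data known. Probe sets were named from the platform's annotation, and positions are RefSeq, GRCm38.p6.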

Additional observations from a re-analysis of the deposited data

Results flagged for a closer look

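SHS4m+1m recovery replicate 72 stood apart below the other 3 arrays of its group for 4 markers, with log2 signals of 10.53 for Vsig4, 10.28 for Lyz2, 11.87 for Cd5l and 8.90 for Adgre1. These were 4 of 39 groups of 4 arrays examined with Dixon's criterion, which chance meets in about 1 group in 20, and the 4 share an array. The same array had the actin 3′ to 5′ ratio of 8.82. The part of RNA integrity in these values was not tested. The Clec4f change from control differed between the exposed groups, with recovery 0.46 above SHS4m livers (limma, adjusted p = 0.0442). That call was lost under 14 of 17 alternatives, with adjusted p up to 0.147.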

How the results depend on the processing

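In SHS4m against control, all 221 refits of the 13 probe sets kept their direction. Marco and Lyz2 stayed called under 17 of 17 alternatives, with adjusted p from 0.00735 to 0.0483 and from 0.00771 to 0.031 (limma). Clec4f lost its call under 2, without a floor and with arrays centred on their median, and Cd163 under 12. The 1 call gained was the second Csf1r probe set without SHS4m replicate 69 (-0.58, adjusted p = 0.0352). The 4 probe sets called became 2 without a floor (log2 of the signal plus 16) and 1 at the study's unadjusted p and 2-fold change. In recovery against SHS4m the 1 called became 0 under a floor of 16, a floor at the 25th percentile, no floor, quantile normalization, median centring, the filter on dim probe sets, the 8 arrays alone and the study's threshold, and ranged from 0 to 1 on leaving out 1 array at a time. In recovery against control, small differences that were not called changed sign. With arrays centred on their median, Clec4f was 0.03 and Cd5l 0.06, and with array quality weights Cd5l was 0.01. When single arrays were left out, Clec4f ran from -0.1 to 0, Vsig4 from -0.28 to 0.03, Cd5l from -0.07 to 0.07, Cd68 from -0.37 to 0 and the second Csf1r probe set from -0.17 to 0.02, with the highest value in each case without recovery replicate 72. Timd4 in recovery against SHS4m ran from -0.07 to 0.15. The counts of groups that did not overlap without replicates 67 and 72 were added after seeing the data. Beyond the settings named, the cause was not tested. No paired analysis was possible because the groups share no replicate numbers. Dim signals, such as the second Marco probe set, limit what a floor of 32 can show.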
